A study of Rattus norvegicus with 20 samples.

Results

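The miR-34 family on the rat array comprised rno-miR-34a, rno-miR-34b and rno-miR-34c (miR-34a, miR-34b and miR-34c from here on), chosen by name as the rows of the scanner files for these miRNAs without a star, and these 3 were among 350 miRNAs on each array. They were followed in soleus muscle and in L4 to L6 dorsal root ganglia (DRGs) of adult male Sprague-Dawley rats, on 10 arrays for each tissue. Each tissue had 1 array of the sham control, 3 of denervation (the sciatic nerve cut, 6 months), 3 of entrapment (a silastic tube placed around the nerve without constricting it, 6 months) and 3 of decompression (the same tube for 6 months, then 3 months after its removal). No transgene or drug separated the groups. The decompression rats also had a second operation and a longer time after the first than the denervation and entrapment rats. These cannot be told apart from decompression itself. The labels give no time for the sham arrays. The Methods give 3 rats to every group while the labels give 1 sham array, and whether that array holds 1 rat or a pool was not given in the sources used here.

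miRNAs of this family are short RNAs that lower the output of messenger RNAs whose sites pair with the seed, the bases near the 5′ end of the miRNA. They are best known as transcriptional targets of the tumour suppressor p53 and as brakes on the cell cycle, and miR-34a has also been studied in ageing and injured neurons. miR-34a comes from a gene of its own, whereas miR-34b and miR-34c are cut from a shared primary transcript.

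The mature sequences are shown because the 3 members share 1 seed and because miR-34b and miR-34c are nearly the same molecule. All 3 were matched in RefSeq (build GRCr8), and bases 2 to 8, the seed, are in capitals. miR-34a-5p lies at chr5:165815971-165815992 on the plus strand, miR-34b-5p at chr8:60306657-60306679 and miR-34c-5p at chr8:60306133-60306155, both on the minus strand. miR-449a-5p, of a related family, is added because it has the same seed.
miR-34a-5p: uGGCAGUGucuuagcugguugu
miR-34b-5p: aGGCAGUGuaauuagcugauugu
miR-34c-5p: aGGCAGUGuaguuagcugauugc
miR-449a-5p: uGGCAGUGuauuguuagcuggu

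Counted from the 5′ end, miR-34c differs from miR-34b by A11G and U23C, so 21 of 23 bases are identical (91.3%), and miR-34a shares 19 of 23 aligned bases with miR-34b and 18 of 23 with miR-34c. The probes were not given, and how far miR-34b binds the miR-34c probe or the reverse was not tested, so the values of these 2 members are uncertain as separate measurements. Of the 348 miRNAs that carried 1 name in all files, 4 without a star had this seed, namely the 3 members and miR-449a, and 303 could be matched to a RefSeq name.

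The hairpins are shown because they place the measured arm, in capitals, within its precursor. The miR-34b and miR-34c hairpins lie 441 bases apart on chromosome 8, and the miR-34a hairpin is on chromosome 5.
Mir34a, chr5:165815952-165816053, plus strand: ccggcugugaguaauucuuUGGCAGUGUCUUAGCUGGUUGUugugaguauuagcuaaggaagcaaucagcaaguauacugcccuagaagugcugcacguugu
Mir34b, chr8:60306609-60306692, minus strand: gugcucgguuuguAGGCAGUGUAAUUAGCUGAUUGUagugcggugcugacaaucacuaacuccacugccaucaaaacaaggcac
Mir34c, chr8:60306091-60306167, minus strand: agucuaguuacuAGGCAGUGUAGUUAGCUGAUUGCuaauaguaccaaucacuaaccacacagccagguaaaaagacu

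Signals are total gene signals, background-subtracted intensities on a linear scale. Scaled signals were divided by the 75th percentile of each array, and differences are on the log2 scale of the scaled signals. A miRNA was called when the adjusted p of limma over all tested miRNAs of the tissue was under 0.05. In these tissues, fewer cells of a type and less RNA per cell cannot be told apart. The labelled tissues were checked against marker miRNAs. All 5 skeletal muscle markers were detected in soleus and also in the DRGs, so their detection alone does not tell the tissues apart. Their levels stood far apart: the summed signal, scaled within each tissue, ran from 56279 to 342043 on the soleus arrays and from 252 to 401 on the DRG arrays. In soleus, miR-499 of these markers had a detection call on every injured array but none in sham. That single sham array enters each soleus comparison with sham. All 6 neuronal markers were detected in the DRGs, and miR-183, miR-124, miR-9 and miR-138 on no soleus array. The others, miR-182 and miR-96, were detected on 2 of 3 soleus denervation arrays and 1 of 3 soleus decompression arrays, respectively.

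The arrays also stood apart in ways that touch every result below. Of 45 control features, 24 in the DRGs and 12 in soleus did not overlap between the 4 sham and denervation arrays and the 6 entrapment and decompression arrays. The 75th percentile in the DRGs was 97.5 to 117 on the first set and 72.0 to 88.1 on the second. The background did the same: the median signal of the 110 miRNAs detected on no DRG array was -1.77 to -0.662 on the first set and -6.23 to -3.76 on the second, and the corresponding values of 127 miRNAs in soleus were -1.37 to -1.04 and -5.84 to -3.10. Injury group and array handling therefore cannot be told apart between these sets. In the DRGs the deposited processed table also carried the values of the entrapment scanner files under the decompression names and the reverse, so which of these 2 labels is right stays unsettled. The scanner files are followed here. The mean of both groups, which does not depend on the exchange, is given for the comparisons of the members with denervation. Values of entrapment alone or of decompression alone in the DRGs, also those of other miRNAs, rest on the scanner labels.

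miR-34a was detected on all 10 DRG arrays, with a signal 13.5 to 13.9 times its error, and was lowest after denervation. Its unscaled signal was 1469 on the sham array, 1181, 1128 and 1087 after denervation, 1082, 1298 and 1629 after entrapment, and 1424, 1544 and 1472 after decompression. Without scaling, denervation overlapped entrapment through entrapment 1 and lay below all decompression arrays. Scaled, the signal was 1295 in sham, 939 ± 68.5 (SD, n = 3) after denervation, 1490 ± 156 after entrapment and 1653 ± 58.3 after decompression. On that scale the denervation arrays, 889 to 1017, lay below every other DRG array, and every entrapment and decompression array lay above sham.

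Compared with denervation, scaled miR-34a rose 1.58-fold in entrapment (log2 difference 0.66, SE 0.096, limma adjusted p = 0.000825) and 1.76-fold in decompression (0.82, SE 0.096, limma adjusted p = 0.000280), in 9 of 9 pairs of arrays each time. It was the called member of 3 in the first comparison, where 41.1% of 219 tested miRNAs were called in either direction and 8.22% higher. In the second, where 36.5% were called and 8.68% higher, 2 of 3 members were called. The mean of entrapment and decompression was 1.67-fold above denervation (log2 0.74, limma adjusted p = 0.000175). Calls in this comparison were frequent in general, and the 34.2% of miRNAs whose first and second sets of arrays did not overlap after scaling included miR-34a, one of 16 with the entrapment and decompression arrays higher, but neither of the other members. That membership changed with the scaling: all 3 members parted with median scaling, miR-34b and miR-34c but not miR-34a with quantile normalization, and no member without scaling, where the sham and denervation arrays were higher in all 117 miRNAs that parted.

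The size of this difference depended on the scaling. Without any scaling the difference from denervation was 0.22 in entrapment (limma adjusted p = 0.242) and 0.39 in decompression (limma adjusted p = 0.0570), while the median of all tested miRNAs stood at -0.59 and -0.58. Relative to that median, miR-34a was 0.81 and 0.96 higher, and since a constant per array moves a miRNA and the median alike, these 2 values were the same with and without the scaling. With 98.2% of tested miRNAs below it in both comparisons, miR-34a stood near the top of the differences. Other steps moved these values. The share below it was 93.6% in both comparisons with quantile normalization and 95.9% with rank-consistent loess. Its distance from the median was 0.65 and 0.69 with quantile normalization, and 0.62 and 0.82 with the background offset removed. With median scaling the difference was 1.31 in entrapment and 1.47 in decompression (2.47- and 2.77-fold, limma adjusted p = 7.8e-05 and 5.7e-05), where the median of all tested miRNAs stood at 0.49 and 0.51. With quantile normalization the difference was 0.68 and 0.72, and with rank-consistent loess 0.63 and 0.79, each called.

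**Figure D1:**
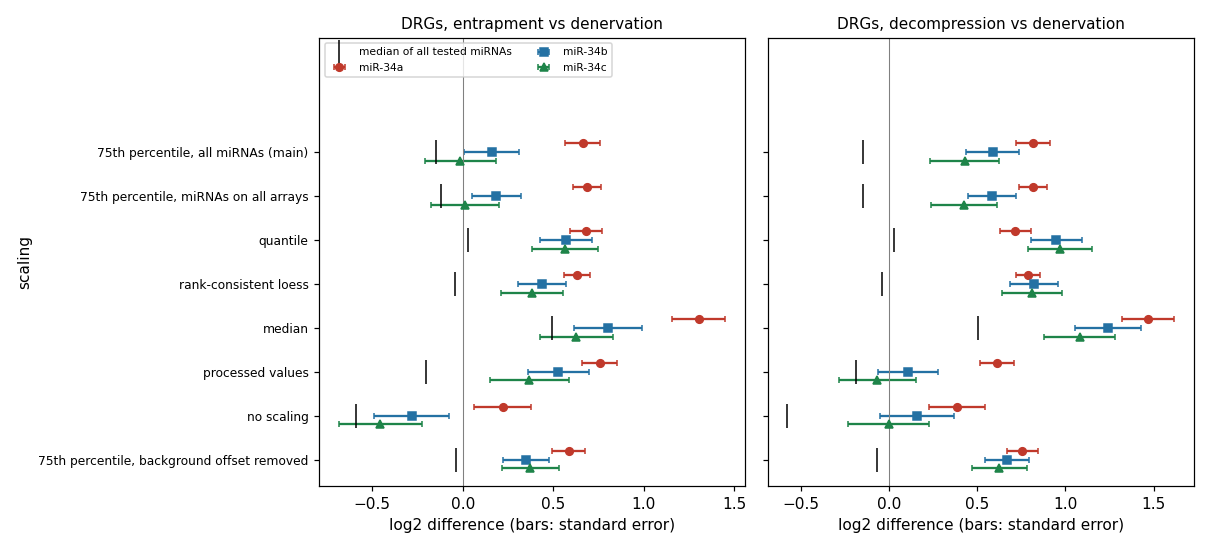
Log2 difference from denervation in the DRGs (x axis) of miR-34a, miR-34b and miR-34c under 8 settings (y axis), for entrapment on the left and decompression on the right. Points are limma estimates with standard errors and black ticks mark the median of all tested miRNAs; miR-34a lies to the right of that median in every setting, at 0.66 and 0.82 in the setting used in the text, and all 3 members move by more than their errors from setting to setting.

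Against the sham array, no member was called in the DRGs after any injury. miR-34a was 0.47 lower after denervation (SE 0.14, 95% interval -0.78 to -0.15, limma adjusted p = 0.137), on 3 of 3 arrays, in a comparison where 0.457% of miRNAs were called and 15.5% had an unadjusted p under the same threshold. It was called lower there with quantile normalization (limma adjusted p = 0.0121) and with loess (limma adjusted p = 0.0277). Entrapment and decompression stood 0.20 (limma adjusted p = 0.323) and 0.35 (limma adjusted p = 0.104) above sham, on 3 of 3 arrays each, where 19.6% and 18.3% of miRNAs were called. With median scaling these differences of miR-34a were 1.04 (limma adjusted p = 0.00379) and 1.21 (limma adjusted p = 0.00334), both called, with the median of all tested miRNAs at 0.73 in each. Entrapment lay below sham instead without scaling (-0.16, limma adjusted p = 0.620) and with quantile normalization (-0.086, limma adjusted p = 0.647), and decompression with quantile normalization (-0.053, limma adjusted p = 0.795). These 3 comparisons share the sham array. By the rule of the study's Methods, a 2-fold change from sham, applied here to each of the 3 arrays, no member passed in the DRGs, where 1.37%, 11% and 13.7% of miRNAs did after denervation, entrapment and decompression.

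miR-34b, one product of the shared transcript, was also detected on all 10 DRG arrays, with a signal 4.87 to 8.60 times its error. Its unscaled signal was 25.1 in sham, 31.7, 24.4 and 20.3 after denervation, 16.01, 21.6 and 25.2 after entrapment, and 25.4, 30.1 and 28.5 after decompression. The groups overlapped, with the highest array in denervation and the lowest in entrapment. Scaled, the values were 22.1 in sham, 20.9 ± 3.55 (SD, n = 3), 23.3 ± 3.28 and 31.2 ± 1.89, and the decompression arrays lay above all others.

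miR-34b rose 1.504-fold in decompression compared with denervation (0.59, SE 0.15, limma adjusted p = 0.0156), in 9 of 9 pairs. This call was lost without scaling (0.16, limma adjusted p = 0.517), without decompression 3 (0.54, limma adjusted p = 0.0508), and with the entrapment and decompression labels exchanged (0.16, limma adjusted p = 0.431), when the same rise belonged to entrapment. The mean of both groups was 0.37 above denervation (limma adjusted p = 0.0454), but it turned to -0.063 without scaling (limma adjusted p = 0.762) and was no longer called with the processed values (0.32, limma adjusted p = 0.115). Entrapment differed from denervation by 0.16 (limma adjusted p = 0.431). Entrapment was called higher with median scaling (0.80, limma adjusted p = 0.00479), quantile normalization (0.57, limma adjusted p = 0.0179) and loess (0.44, limma adjusted p = 0.0306). Decompression differed from the 1 sham array by 0.49 and was not called on this scale. That difference was 1.35, 1.11 and 0.81 in the same settings. With median scaling the median of all tested miRNAs stood at 0.49 and 0.73 in these comparisons.

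miR-34c, the other product, was detected on all 10 DRG arrays with a signal 2.87 to 6.00 times its error. Its unscaled signal was 15.8 in sham, 19.2, 16.3 and 10.9 after denervation, 9.04, 10.4 and 14.1 after entrapment, and 13.8, 14.8 and 16.8 after decompression. Denervation spanned both the highest value and one of the lower ones. Scaled, it was 13.9 in sham, 12.8 ± 3.12 (SD, n = 3), 12.4 ± 1.54 and 16.9 ± 2.27. Decompression was above denervation in 9 of 9 pairs (0.43, 95% interval -0.022 to 0.88, limma adjusted p = 0.127) and entrapment was at -0.01 from it (95% interval -0.47 to 0.44, limma adjusted p = 0.959), so neither was called on this scale. Decompression was called above denervation with median scaling (1.08, 2.12-fold, limma adjusted p = 0.00154), quantile normalization (0.97, 1.96-fold, limma adjusted p = 0.00456) and loess (0.81, 1.75-fold, limma adjusted p = 0.00625), and entrapment with median scaling (0.63, limma adjusted p = 0.0189) and quantile normalization (0.56, limma adjusted p = 0.0441). The mean of both groups was 0.21 above denervation (limma adjusted p = 0.334) and turned to -0.23 without scaling (limma adjusted p = 0.313). It was called with median scaling (0.85, limma adjusted p = 0.00158), quantile normalization (0.77, limma adjusted p = 0.00596) and loess (0.60, limma adjusted p = 0.0112). With median scaling the median of all tested miRNAs itself stood at 0.51 in decompression, 0.49 in entrapment and 0.50 in their mean. The shares of tested miRNAs below miR-34c there were 92.2%, 61.6% and 81.7%.

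**Figure D2:**
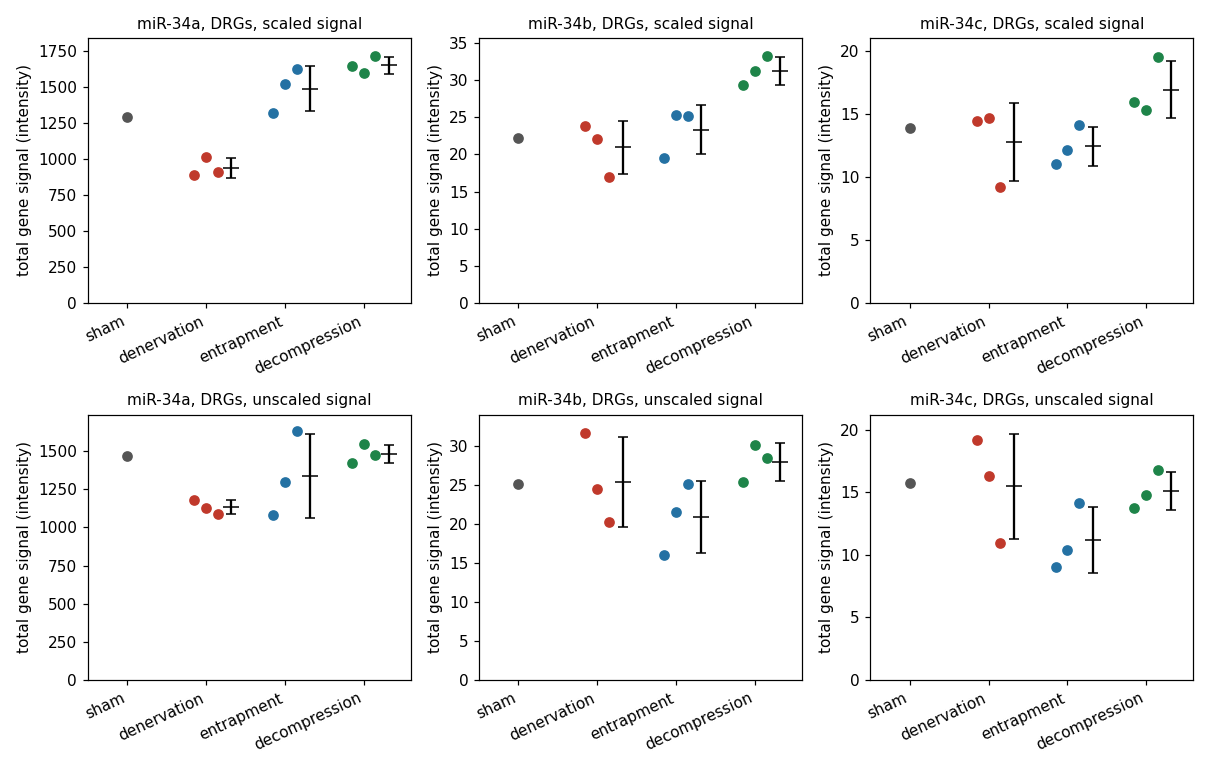
Total gene signal (intensity, y axis) of each member on the 10 DRG arrays, scaled in the upper row and unscaled in the lower row, by group (x axis). Points are arrays and bars are mean ± SD of 3 arrays; scaled miR-34a is 889 to 1017 after denervation, below every other array, while miR-34b and miR-34c overlap between denervation and entrapment.

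The background that parted the array sets was large beside miR-34b and miR-34c, since it differed by several units where miR-34c read 9.04 to 19.2. When the median signal of the undetected miRNAs was subtracted from each array before scaling, a step chosen after seeing the data, decompression lay above denervation by 0.76 for miR-34a (limma adjusted p = 0.000507), 0.67 for miR-34b (limma adjusted p = 0.00494) and 0.63 for miR-34c (limma adjusted p = 0.0175). All 3 members were then called, at 1.69-, 1.59- and 1.54-fold. The share of all tested miRNAs called after this step is not given, and without it 36.5% were called in that comparison. After the step the median of all tested miRNAs stood at -0.066, and 97.7%, 96.3% and 95.9% of them lay below the members in that order. Entrapment lay above denervation by 0.59 (limma adjusted p = 0.00172), 0.35 (limma adjusted p = 0.0697) and 0.37 (limma adjusted p = 0.106). The mean of both groups was above denervation by 0.67 (limma adjusted p = 0.000339), 0.51 (limma adjusted p = 0.00713) and 0.50 (limma adjusted p = 0.0200).

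Ratios of members on the same array, which no scaling by a constant can change, were compared between the injury groups with the exact two-sided permutation test, 9 tests in all, in which 3 arrays against 3 cannot give a p under 0.1. As measured, the log2 ratio of miR-34b to miR-34a was 0.50 lower in entrapment than in denervation and that of miR-34c to miR-34a 0.68 lower, with every entrapment array below every denervation array (exact permutation p = 0.1, adjusted p = 0.225 in both). With the background offset removed these differences were -0.24 (exact permutation p = 0.2) and -0.21 (exact permutation p = 0.4), both with an adjusted p of 0.771. Decompression minus denervation was -0.23 and -0.39 for the same ratios as measured (exact permutation p = 0.3 and 0.2). Decompression minus entrapment was 0.27 and 0.29, with every decompression array higher (exact permutation p = 0.1, adjusted p = 0.225 in both). With the offset removed these were -0.086 and -0.13, and 0.15 and 0.081. An exchange of the labels would give the entrapment differences to decompression. The ratio of miR-34c to miR-34b differed between groups by -0.17, -0.16 and 0.01 as measured (exact permutation p = 0.3, 0.3 and 0.9) and by 0.02, -0.04 and -0.07 with the offset removed.

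**Figure D3:**
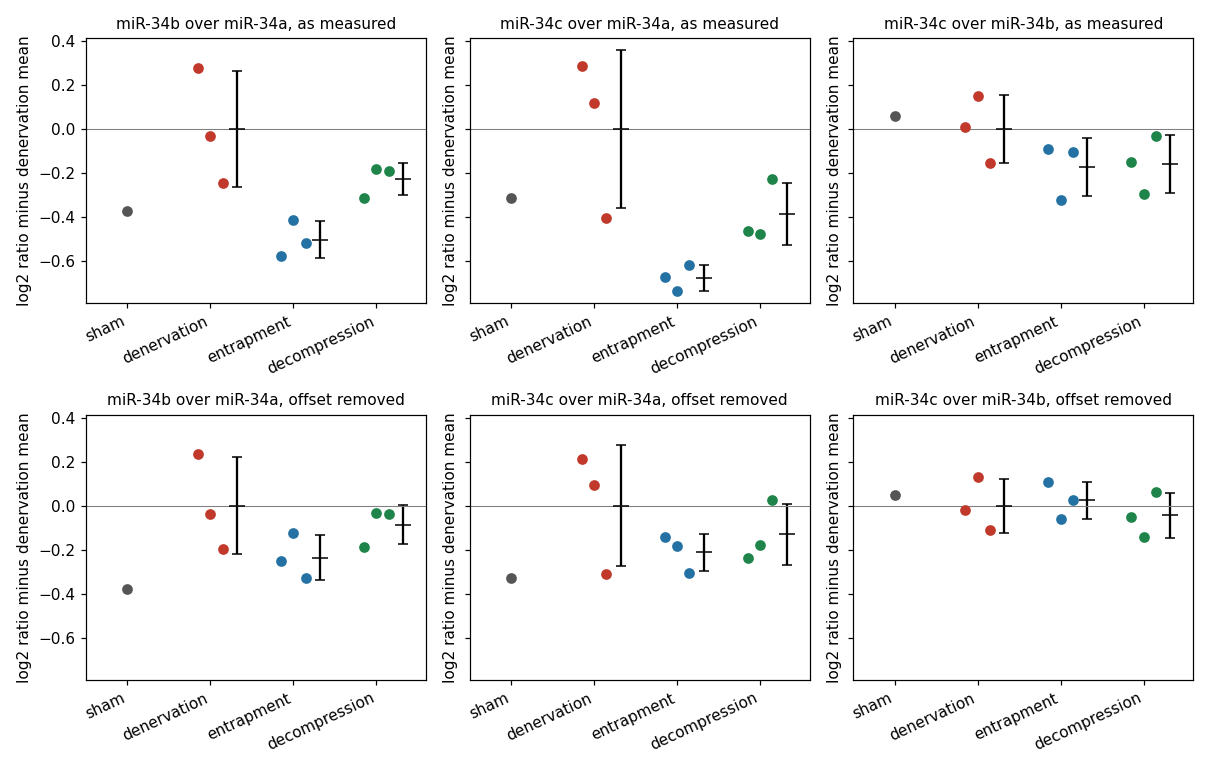
Log2 ratio of 2 members on the same DRG array, minus the mean of the denervation arrays (y axis), by group (x axis), as measured in the upper row and with the background offset removed in the lower row. Points are arrays and bars are mean ± SD of 3 arrays; the entrapment arrays, 0.50 and 0.68 below denervation in the first and second upper panels, lie 0.24 and 0.21 below it in the lower ones.

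Decompression and entrapment were not told apart for any member. The differences were 0.16 for miR-34a (95% interval -0.066 to 0.38, limma adjusted p = 0.960), 0.43 for miR-34b (95% interval 0.084 to 0.77, limma adjusted p = 0.920) and 0.44 for miR-34c (95% interval -0.0081 to 0.90, limma adjusted p = 0.920). No miRNA was called by limma in this comparison, a share of 0%, and 9 of 219 (4.11%) had an unadjusted p under 0.05. Decompression was higher in 8 of 9 pairs for miR-34a and in 9 of 9 for the other members, and an exchange of the labels would turn each sign.

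The members differed in the spread between arrays of a group. Pooled over the 3 injury groups, the SD of the log2 signal in the DRGs was 0.11 for miR-34a, 0.20 for miR-34b and 0.27 for miR-34c, against a median of 0.15 over the 219 tested miRNAs. The tested miRNAs with the pattern most like miR-34b and miR-34c were each other, at a root mean square difference of 0.14 between centred log2 values over 10 arrays, where the median over all others was 0.36 and 0.34. miR-34a was most like miR-133b, a skeletal muscle marker (0.093), then miR-128 (0.14) and miR-183 (0.14), with a median of 0.44. miR-324-5p was next for miR-34b (0.20), followed by miR-133b (0.20), and miR-30c-2* (0.22) and miR-324-5p (0.23) were next for miR-34c. These are descriptions over arrays that share the same parting into sets.

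Neuronal markers did not all move the same way where miR-34a rose. miR-183, a miRNA of sensory neurons, was 0.48 above denervation in entrapment (limma adjusted p = 0.00132) and 0.50 in decompression (limma adjusted p = 0.00114), and of the 6 neuronal markers 3 rose and 1 fell in each. The one that fell was miR-9, by more than any of them rose (-1.34, limma adjusted p = 4.0e-05, and -1.35, limma adjusted p = 4.3e-05), and miR-182, which is transcribed with miR-183, was at -0.11 (limma adjusted p = 0.388) and -0.064 (limma adjusted p = 0.624). Their summed scaled signal was 4731 in sham, 4006 to 4249 in denervation, 4295 to 4878 in entrapment and 4409 to 4785 in decompression. Of 4 leukocyte markers, 3 fell in entrapment compared with denervation by limma and none was called in decompression, with sums of 491 to 659 and 741 to 979 against 691 to 1127. An exchange of the labels would move these falls to decompression. Of 5 skeletal muscle markers, 1 rose and 1 fell in entrapment, and 1 rose in decompression. Of 2 glial markers, 1 fell in entrapment and none was called in decompression. Over all 219 tested miRNAs, 8.22% were called higher and 32.9% lower in entrapment, and 8.68% and 27.9% in decompression. The part of these markers in the difference of miR-34a was not tested.

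In soleus muscle, miR-34a was the detected member, on 10 of 10 arrays, and it was not called in any comparison. Its unscaled signal was 27.7 in sham, 90.7, 233.0 and 43.5 after denervation, 433.9, 147.6 and 64.9 after entrapment, and 138.7, 127.9 and 118.9 after decompression. Every injured array lay above sham, but the brightness of the soleus arrays varied 6.20-fold at the 75th percentile and sham was the dimmest of them. Scaled, it was 70.0 in sham, 90.0 ± 22.0 (SD, n = 3), 149 ± 94.8 and 128 ± 15.2. The entrapment mean rested on entrapment 1, at 258 against 96.5 and 91.2 on the other arrays, and denervation 1, at 65.9, was below sham.

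The differences from sham in soleus were 0.33 after denervation (SE 0.58, limma adjusted p = 0.723), 0.91 after entrapment (SE 0.58, limma adjusted p = 0.275) and 0.86 after decompression (SE 0.58, limma adjusted p = 0.288), where 26.6%, 29.5% and 31.8% of 173 tested miRNAs were called. Without entrapment 1 the entrapment value was 0.42 (limma adjusted p = 0.461). With the percentile taken over all 348 miRNAs, miR-34a was called higher in entrapment (1.71, limma adjusted p = 0.0458) and decompression (1.65, limma adjusted p = 0.0486). Compared with denervation, entrapment differed by 0.58 (limma adjusted p = 0.439) and decompression by 0.53 (limma adjusted p = 0.440), where 11.6% and 13.9% of miRNAs were called, and decompression differed from entrapment by -0.05 (95% interval -0.98 to 0.88), where limma called 0% of miRNAs and 7 had an unadjusted p under 0.05. By the 2-fold rule miR-34a did not pass in soleus either, where 34.1%, 38.2% and 40.5% of miRNAs did after denervation, entrapment and decompression, and it was not among the 14.5% of miRNAs whose sets of arrays did not overlap, though it was among those that parted with quantile normalization and with the percentile over all miRNAs. The miRNAs most like miR-34a in soleus were miR-497 (0.35), miR-140 (0.40) and miR-23a (0.41), where the median difference was 0.91.

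miR-34b and miR-34c were not detected on any of the 10 soleus arrays and were not tested there. Their unscaled signals were -5.13 to 4.16 and -4.69 to 2.18, never more than 1.29 and 0.744 times their error. miR-34c*, the opposite arm of the miR-34c hairpin, and miR-449a were not detected on any of the 20 arrays of both tissues.

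**Figure D4:**
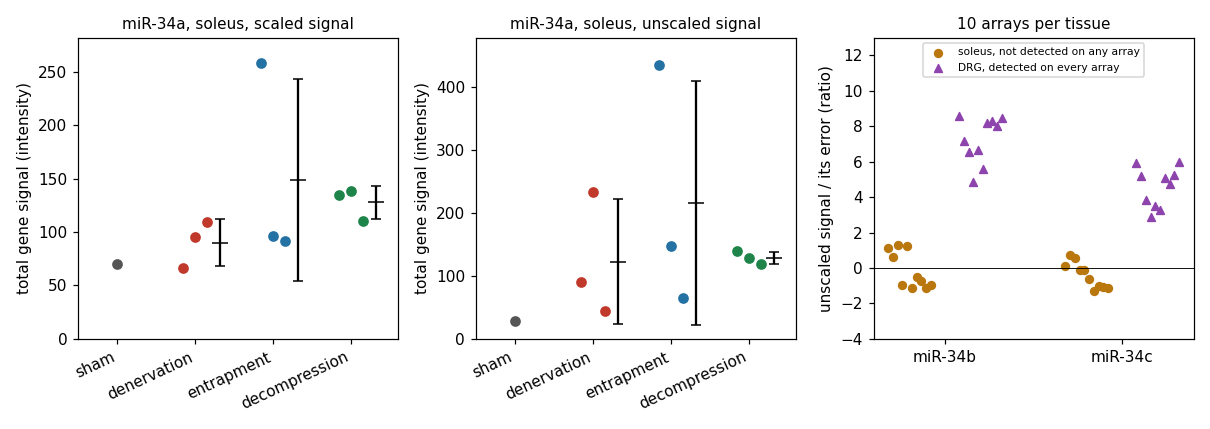
miR-34a on the 10 soleus arrays (y axis: total gene signal, scaled on the left and unscaled in the middle; x axis: group; bars: mean ± SD of 3 arrays), and, on the right, the signal of miR-34b and miR-34c divided by its error on the 10 arrays of each tissue. Entrapment 1 stands at 258 on the scaled axis against 96.5 and 91.2 for its replicates, and the soleus ratios of miR-34b and miR-34c stay at or below 1.29 while those of the DRGs start at 2.87.

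All 3 members were higher in the DRGs than in soleus when the 20 arrays were scaled together over the 102 miRNAs detected on each of them. miR-34a was 13.02-fold higher within denervation (limma adjusted p = 5.44e-08), 15.8-fold within entrapment (limma adjusted p = 2.11e-08) and 17.8-fold within decompression (limma adjusted p = 1.26e-08), and 15.4-fold over the mean of the injuries (log2 3.95, SE 0.18, limma adjusted p = 1.47e-11). That mean was 7.80-fold with the percentile over all miRNAs, 10.2-fold with quantile normalization and 10.3-fold without scaling, and remained called. The sham arrays, 1 against 1, differed 22.7-fold. Of 234 tested miRNAs, 53.4%, 56% and 56% were called higher in the DRGs within the 3 injury groups and 62% over their mean, and the median difference of all tested miRNAs was 0.94 to 1.12, so a higher level in the DRGs was common.

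Since miR-34b and miR-34c were under detection in soleus, their differences between tissues are nominal bounds. The limit on each soleus array was the highest of the lowest detected signal, the measured signal and the floor of 2.43. No test is given, since both members passed the filter through the DRG arrays alone. Against that limit, miR-34b was 6.30-fold higher in the DRGs within denervation, 9.68-fold within entrapment and 15.01-fold within decompression. miR-34c was 3.79-, 5.16- and 8.09-fold higher in the same order. An undetected signal can exceed the lowest detected one, as miR-34b did on the soleus sham array (5.84 against 5.79). The bounds were not tested under other scalings, where the miR-34a ratio moved from 15.4- to 7.80-fold with the percentile over all miRNAs. The bounds differ between groups partly because the soleus arrays differ in their lowest detected signal, and their order is not a comparison of injuries.

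**Figure D5:**
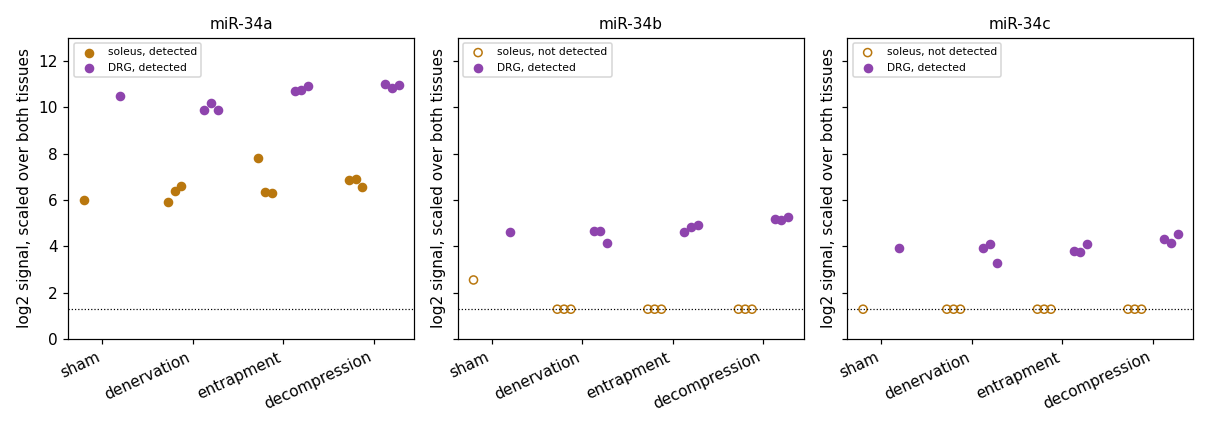
Log2 signal of each member, scaled over both tissues together (y axis), by group (x axis). Points are arrays, open circles are soleus arrays on which the miRNA was not detected, and the dotted line is the floor; miR-34a lies 13.02- to 17.8-fold higher in the DRGs within the injury groups, and miR-34b and miR-34c are detected in the DRGs alone.

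The change of miR-34a from sham was not shown to differ between tissues. The DRG change minus the soleus change was -0.80 after denervation (95% interval -2.13 to 0.54, limma adjusted p = 0.426), -0.52 after entrapment (limma adjusted p = 0.583) and -0.35 after decompression (limma adjusted p = 0.720), where 23.5%, 27.4% and 27.4% of miRNAs were called. The rise from denervation, called in the DRGs, differed from its soleus counterpart by 0.28 for entrapment (95% interval -0.66 to 1.22, limma adjusted p = 0.786) and 0.45 for decompression (95% interval -0.50 to 1.39, limma adjusted p = 0.552), where 8.97% and 11.1% were called.

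Other miRNAs linked to p53 were read from a list of 11, of which 10 were on the array and 6 were tested in each tissue. Of these, miR-145, a miRNA of smooth muscle that p53 helps to process, fell in the DRGs in entrapment and decompression compared with sham (-1.17, limma adjusted p = 0.00344; -1.27, limma adjusted p = 0.00257) and with denervation (-1.09, limma adjusted p = 0.000428; -1.19, limma adjusted p = 0.000269). miR-15b, which represses cell cycle genes, rose in decompression compared with denervation (0.54, limma adjusted p = 0.0310). None of the 6 was called in denervation compared with sham in the DRGs, where 0.457% of all tested miRNAs were. miR-16, miR-107, miR-143 and miR-192 were not called in any of these comparisons. Of all tested miRNAs, 19.6% and 18.3% were called in entrapment and decompression compared with sham. Compared with denervation, 32.9% and 27.9% were called lower, and 8.22% and 8.68% higher.

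In soleus, miR-145 fell compared with sham in entrapment (-1.90, limma adjusted p = 0.0127) and decompression (-1.57, limma adjusted p = 0.0253), and compared with denervation in entrapment (-1.30, limma adjusted p = 0.0276). miR-192 was called higher than sham after denervation (1.69, limma adjusted p = 0.0255), entrapment (1.61, limma adjusted p = 0.0331) and decompression (1.96, limma adjusted p = 0.0139), but was detected on 1, 2 and 1 of 3 arrays, so these values rest largely on signals without detection. miR-15b rose after denervation (1.55, limma adjusted p = 0.04997). miR-141, miR-200c and miR-215 were not detected on any array of either tissue, and miR-194 on none of the DRG arrays.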

How the data were processed

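Total RNA of soleus muscle and DRGs was measured on 20 Agilent rat miRNA arrays with 1 dye; the labels describe Cy3-CTP amplification and the Methods pCp-Cy3 ligation. Per the labels, Agilent Feature Extraction 9.5.3 was used. The authors deposited for each array the total gene signal, an intensity after background subtraction with no normalization between arrays, with its error and a detection call. They also deposited processed values, a signal per miRNA that differs from the scanner intensity by 1 factor per array.

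Arrays were grouped by the labels of the scanner files. Signals were divided by the 75th percentile of the array. In soleus, where a median of 148.5 of 348 miRNAs was detected, this was taken over the 108 that every array detected, and in the DRGs over all 348. Signals under the floor (2.71 in soleus, 2.31 in the DRGs, the median of the lowest detected signals) were raised to it before the log2. Tests covered the 173 miRNAs in soleus and 219 in the DRGs with detection on 3 or more of 10 arrays. limma 3.58.1 in R 4.3.3 (lmFit and eBayes, group only, 6 residual degrees of freedom) gave two-sided p-values with Benjamini-Hochberg adjustment, and the single sham array took its spread from the other groups. A second fit held all 20 arrays (234 tested, floor 2.43). Control features and 2 miRNAs with differing names were left out. The labels call the sham arrays biological and the injury arrays experimental replicates, and the Methods give 3 rats per group. The number of arrays limits the precision.

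Every member, its star strand, the listed p53-linked miRNAs and the 3 miRNAs of most similar pattern were named. The members and lists were chosen with earlier results of these data known. Sequences came from RefSeq (GRCr8) and were aligned with Biopython 1.88. The scripts were tested on simulated data. Alternatives were other scalings, filters, a pseudocount, the processed values, an intensity trend, both groups alone, a replicate block, exchanged labels and each injury array left out. The replicate numbers were taken as names only, since same-numbered arrays did not deviate together in every pair. Slide and scan were not tested as batches.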

Additional observations from a re-analysis of the deposited data

How the results depend on the processing

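Of 732 values of single members under alternatives, 658 kept their direction and their side of the threshold, 24 passed it anew, 6 no longer passed it and 44 changed sign. Causes were not tested. With median scaling in the DRGs, the median of all tested miRNAs stood at 0.49 in entrapment and 0.51 in decompression compared with denervation. Compared with sham it stood at 0.73 in each. In that setting 126 of 219 miRNAs parted with the entrapment and decompression arrays higher, so calls there are not read as a trait of the family. The numbers of members called were as follows, without the share of all miRNAs called under each alternative. In soleus, 1 was called against sham in entrapment and in decompression with the percentile over all miRNAs, and by the 2-fold rule, counted over the 3 comparisons with sham, miR-34a passed in 2 without scaling, with quantile normalization, with that percentile and with processed values, and in 1 with loess and with a 1.5-fold limit, against 0. In the DRGs, denervation against sham gave 1 with quantile normalization and with loess, entrapment against sham 2 with median scaling and 1 with quantile normalization, and decompression against sham 3, 2 and 1 with median scaling, quantile normalization and loess. Entrapment against denervation gave 0 without scaling, 3 with median scaling and quantile normalization, and 2 with loess, processed values, exchanged labels and the mean of both groups. Decompression against denervation gave 3 with median scaling, quantile normalization, loess and the offset removed, 0 without scaling, 1 with processed values and exchanged labels, and 1 to 2 when single arrays were left out, the 1 without decompression 3. The 2-fold rule in the DRGs, counted over members and comparisons, gave 3 with median scaling and 1 with quantile normalization. miRNAs parted without overlap numbered 2 without scaling, 15 with quantile normalization and 35 with the percentile over all miRNAs in soleus against 25, and 117 without scaling and 145 with median scaling in the DRGs against 75. The change of miR-34a from sham in entrapment differed between tissues with quantile normalization (-1.90, limma adjusted p = 0.0429), so 1 was called there. The 4 calls of miR-34a between tissues were counted under every alternative run, and the bounds of the other members were not tested.

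Signs turned mostly for values near 0. In soleus, miR-34a turned in decompression against denervation with processed values (-0.69) and in decompression against entrapment without entrapment 1 (0.44) and without decompression 3 (0.053), with a range of -0.31 to 0.44 over single arrays left out. In the DRGs, denervation against sham turned for miR-34b with median scaling (0.11), quantile normalization (0.16), processed values (0.015) and without denervation 3 (0.050), and for miR-34c with median scaling (0.048), quantile normalization (0.11) and without denervation 3 (0.068). Over single arrays left out, these ranged from -0.19 to 0.050 and from -0.27 to 0.068. Entrapment against sham turned for miR-34a without scaling (-0.16) and with quantile normalization (-0.086), for miR-34b without scaling (-0.29), and for miR-34c with median scaling (0.68), quantile normalization (0.67), loess (0.32), processed values (0.32), exchanged labels (0.28) and the offset removed (0.24). Decompression against sham turned for miR-34a with quantile normalization (-0.053) and for miR-34c without scaling (-0.066), with processed values (-0.11) and exchanged labels (-0.17). Entrapment against denervation turned for miR-34b without scaling (-0.28) and for miR-34c with median scaling (0.63, called), quantile normalization (0.56, called), loess (0.38), the percentile over miRNAs on all arrays (0.012), processed values (0.37), exchanged labels (0.43), the offset removed (0.37), the mean of both groups (0.21), and without denervation 1 (0.09), denervation 2 (0.10) and entrapment 1 (0.068), with a range of -0.24 to 0.10 over single arrays left out. Decompression against denervation turned for miR-34c without scaling (-0.0017), with processed values (-0.066) and exchanged labels (-0.014). Decompression against entrapment turned with processed values for miR-34a (-0.15), miR-34b (-0.42) and miR-34c (-0.43), and with exchanged labels (-0.16, -0.43 and -0.44), by construction.

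With a replicate block, DRG miR-34a was 0.66 and 0.82 above denervation (limma adjusted p = 0.00209 and 0.00110) and miR-34b 0.59 (limma adjusted p = 0.0306), and the numbers of members called against denervation were 1 and 2; no call of a member changed. Same-numbered arrays correlated from -0.473 to 0.205 in soleus and from -0.122 to 0.481 in the DRGs. The offset and the mean of both groups were chosen after seeing the data. The 1 sham array limits each comparison with sham, and miR-34c lay closest to its own error.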
